A study of Homo sapiens with 6 samples.

Results

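EGR1, IER3 and DUSP2 are 3 early response genes that do not encode subunits of the transcription factor AP-1, and they were followed across 6 Affymetrix arrays of A549, a human cell line from a lung adenocarcinoma. They are 3 of the 14884 genes named on the array. Their features were taken by gene symbol, and the genes were chosen by their heat differences in earlier results of these data, to contrast early genes that do and do not respond to heat. The groups, with 1 array each, were a control kept at 37 °C without treatment, X-rays alone (3 Gy), 1 h at 41.5 °C, 1 h at 44 °C, and each of these heatings followed at once by 3 Gy. All cells had first grown for 24 h at 37 °C, and after heat alone or X-rays alone they were kept for 3 h at 37 °C before RNA was taken. The time after the combined treatments and the time of the control after the first 24 h are not given, so a difference from the control may include time in culture. The labels do not say whether each array had a culture of its own, and the p-values below therefore speak only of spread among the 6 arrays, which may be technical. The arrays read RNA from whole cultures, in which fewer cells with a message and less of it per cell cannot be told apart.

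Early response genes are transcribed within minutes of a stimulus from factors already present in the cell, and many of their messages decay quickly. EGR1 encodes a zinc finger transcription factor whose gene is switched on by ERK signalling through serum response factor (SRF) and its ternary complex partners, which bind CArG boxes in the promoter. EGR1 protein in turn activates NAB2, a corepressor that limits EGR1 activity. IER3 (also called IEX-1) encodes a regulator of apoptosis and ERK signalling, and its gene is a known target of NF-kappaB and p53. DUSP2 (also called PAC-1) encodes a nuclear phosphatase that removes the activating phosphates from MAP kinases.

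The 250 bases before the annotated start of EGR1 and DUSP2 were compared because both genes are early genes while their heat values differed, and that of SRF is shown as the gene of the factor that binds CArG boxes. The sequences are from RefSeq on build GRCh38.p14 and are written 5′ to 3′ on the strand of the gene, with CArG boxes in capitals. EGR1 lies on the plus strand (chr5:138465229-138465478), DUSP2 on the minus strand (chr2:96145441-96145690) and SRF on the plus strand (chr6:43171019-43171268).
EGR1: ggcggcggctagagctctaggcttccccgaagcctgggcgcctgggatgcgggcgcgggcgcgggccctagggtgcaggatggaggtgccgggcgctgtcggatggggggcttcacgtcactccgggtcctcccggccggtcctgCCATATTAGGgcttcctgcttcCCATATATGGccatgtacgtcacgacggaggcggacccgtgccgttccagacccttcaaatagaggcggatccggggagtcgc
DUSP2: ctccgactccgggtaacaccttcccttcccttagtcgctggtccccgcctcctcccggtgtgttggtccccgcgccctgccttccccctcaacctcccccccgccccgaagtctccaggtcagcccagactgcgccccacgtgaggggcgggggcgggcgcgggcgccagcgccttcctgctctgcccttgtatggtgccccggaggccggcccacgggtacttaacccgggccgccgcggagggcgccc
SRF: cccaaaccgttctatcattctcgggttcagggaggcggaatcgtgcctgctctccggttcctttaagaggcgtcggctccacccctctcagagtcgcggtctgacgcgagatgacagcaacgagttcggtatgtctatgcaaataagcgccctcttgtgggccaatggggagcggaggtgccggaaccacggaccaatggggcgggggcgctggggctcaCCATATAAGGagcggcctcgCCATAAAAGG
The EGR1 window held 2 CArG boxes, from 105 to 96 and from 83 to 74 bases before the start, and the SRF window also held 2. The DUSP2 window held 0. The windows of FOSB, FOS, CSRNP1, IER5, IER2 and NAB2 also held 0. Their log2 differences at 44 °C against 37 °C, in the model below, ran from 1.07 to 4.13. Windows with 0 also belonged to genes that did not rise, such as SIK1 (0.003) and PLK2 (-0.452). Of the other list genes with a matched window, only SRF and PDGFA held a CArG box, with differences of 0.42 and -0.23. Whether CArG boxes bear on the heat values was not tested. Of the 27305 promoter windows of the same length and build, 1.14% held at least 1 CArG box and 9 held 2 or more. EGR1 also had 2 copies of the cyclic AMP response element core TGACG, which 21.7% of all windows held, and 1 match to the EGR site GCGNGGGCG, which 8.25% held. DUSP2 had 2 EGR site matches and 3 GC boxes (GGGCGG, in 42.3% of windows), and 1 of the EGR site matches overlapped 2 of the GC boxes. Neither window held the heat shock element core GAANNTTC (5.85% of windows), the AP-1 site TGANTCA (6.6%) or the NF-kappaB consensus (9.57%). All motifs were searched on both strands. A match is a description of letters, and no match says only that those letters are not in this window.

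EGR1 was high on the arrays of cells heated to 44 °C and on no other. Its log2 level was 5.26 in the control, 5.36 after X-rays, 5.35 after 41.5 °C and 5.35 after 41.5 °C with X-rays. It stood at 10.88 after 44 °C and at 10.85 after 44 °C with X-rays. The 2 arrays of 44 °C thus lay 5.49 above the highest of the other 4, while those 4 lay between 5.26 and 5.36, a spread less than the median residual SD of all genes (0.113). Between arrays of the same radiation state, 44 °C exceeded 37 °C by 5.62 without and by 5.49 with X-rays. In the additive model of temperature and radiation, the log2 difference was 5.55 ± 0.09 (SE, 2 arrays at each temperature), or 47.0-fold, and it ranked 1 among the 14884 genes. At 41.5 °C the differences from 37 °C were 0.09 without and -0.01 with X-rays, and the model estimate was 0.04 ± 0.09 (SE, 2 arrays each). These heat values chose the gene, so they are given without a test. The table holds no detection call, so whether EGR1 exceeded background on the other 4 arrays was not determined.

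A second array feature named for EGR1 showed the same separation at a lower signal and with a smaller difference. It read 4.02 in the control, 4.12 after X-rays, 4.19 after 41.5 °C and 4.17 after 41.5 °C with X-rays, against 8.14 after 44 °C and 7.69 after 44 °C with X-rays. Its difference between 44 °C and 37 °C was 4.12 without and 3.57 with X-rays, or 3.84 ± 0.17 (SE, 2 arrays each) in a fit of all 53617 features. Both features therefore separated the arrays of 44 °C from the rest, and they disagreed on the size, at 5.55 and 3.84 on the log2 scale.

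**Figure D1:**
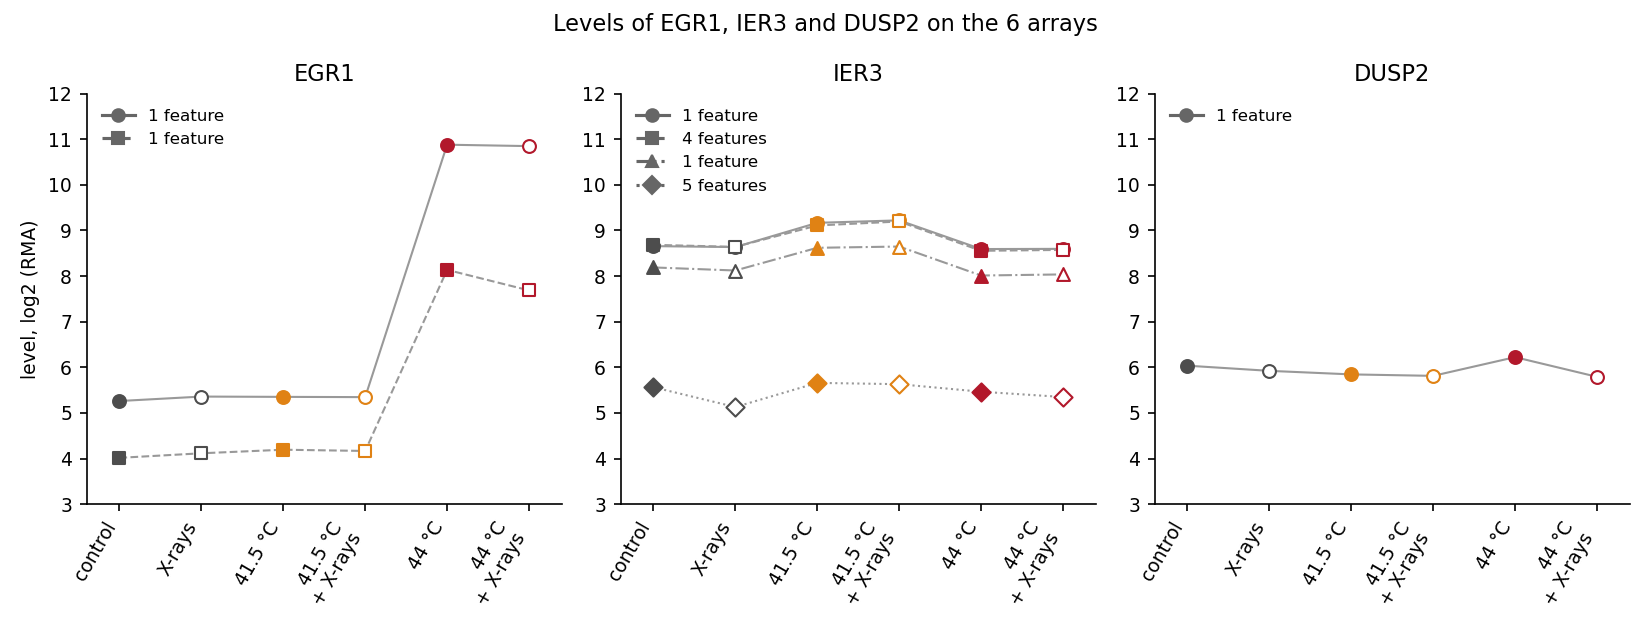
Log2 level (RMA, vertical axis) of EGR1, IER3 and DUSP2 on each of the 6 arrays (horizontal axis), 1 point per array and 1 line for each distinct profile of the features named for the gene. Filled symbols are arrays without and open symbols arrays with X-rays; EGR1 is at 10.88 and 10.85 on the 44 °C arrays, IER3 is highest on the 41.5 °C arrays, and DUSP2 lies between 5.79 and 6.22 throughout.

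IER3 had its highest levels after the milder heat. Its log2 level was 9.17 after 41.5 °C and 9.22 after 41.5 °C with X-rays. It was 8.66 in the control, 8.63 after X-rays, 8.59 after 44 °C and 8.60 after 44 °C with X-rays. The 2 arrays of 41.5 °C lay 0.51 above the highest of the other 4, and those 4 lay between 8.59 and 8.66. The difference between 41.5 °C and 37 °C was 0.51 without and 0.59 with X-rays, or 0.55 ± 0.07 (SE, 2 arrays each) in the model, a 1.46-fold higher level. Of all genes, 2.96% differed by as much in either direction. At 44 °C the difference from 37 °C was -0.06 without and -0.04 with X-rays (model -0.05 ± 0.07), and 44 °C lay below 41.5 °C by a log2 difference of -0.60 ± 0.07 (SE, 2 arrays each). These values chose the gene and carry no test.

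IER3 is named for 11 features, which hold 4 distinct profiles because 4 features share identical values and another 5 do so too. The profile shared by 4 features read 8.68, 8.64, 9.11, 8.55, 9.20 and 8.57 in the order control, X-rays, 41.5 °C, 44 °C, 41.5 °C with X-rays and 44 °C with X-rays. It placed the arrays of 41.5 °C above all others, as did a single feature whose differences from 37 °C were 0.43 without and 0.53 with X-rays. The profile shared by 5 features had a lower signal, from 5.13 after X-rays to 5.66 after 41.5 °C. Its difference at 41.5 °C was 0.10 without X-rays and 0.50 with them, so its size depended on the pair of arrays compared.

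DUSP2 differed little between temperatures, and its order across the arrays followed neither heat nor radiation alone. Its log2 level was 6.22 after 44 °C, 6.04 in the control and 5.92 after X-rays. It was 5.84 after 41.5 °C, 5.81 after 41.5 °C with X-rays and 5.79 after 44 °C with X-rays. The highest and the lowest array were thus the 2 arrays of 44 °C, and the groups of temperature overlapped. The gap below 44 °C was 0.19 and that below the control was 0.113, each at or over the median residual SD of all genes, and the other neighbours differed by less than it. The difference between 44 °C and 37 °C was 0.19 without and -0.13 with X-rays, or 0.03 ± 0.13 (SE, 2 arrays each) in the model, and 88.9% of all genes differed by as much. Its sign was negative when each array was centred on its median (-0.02) and after a further quantile normalization (-0.01), and without the 44 °C array the model value was -0.15. At 41.5 °C the difference from 37 °C was -0.19 without and -0.11 with X-rays (model -0.15 ± 0.13). DUSP2 is named for 1 feature, so its values have no second reading.

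Heat shock genes were read as a check of the heated groups. At 44 °C against 37 °C, 6 of the 6 measured heat shock reference genes rose, with a median log2 difference of 2.41, where 6.11% of all genes were called, 3.57% higher and 2.54% lower. At 41.5 °C, 5 of the 6 rose, with a median of 1.15, where 3.29% were called, 2.18% higher and 1.1% lower. The chaperone gene HSPA1B, which can share probe signal with its near-identical copy HSPA1A, stood at 10.14 in the control, 11.88 after 41.5 °C and 12.71 after 44 °C. HSPA6, an inducible HSP70 gene, stood at 4.42, 4.52 and 7.71 on the same arrays. A gene was called when its adjusted p in limma was under 0.05. In counts of list genes, here and below, rose and fell stand for called higher and called lower. At 44 °C against 41.5 °C 12.1% of all genes were called, 4.9% higher and 7.23% lower. Variances were moderated with an intensity trend. Without it, the count of list genes called higher at 41.5 °C was 5 in place of 22, and the calls at 41.5 °C named below for genes outside AP-1 were lost, with adjusted p from 0.0568 (TIPARP) to 0.157 (HMOX1). At 44 °C those of EGR3 (0.0584), SRF (0.148), MRTFA (0.123), VEGFA (0.073), THBS1 (0.111) and SESN2 (0.177) were then lost.

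**Figure D2:**
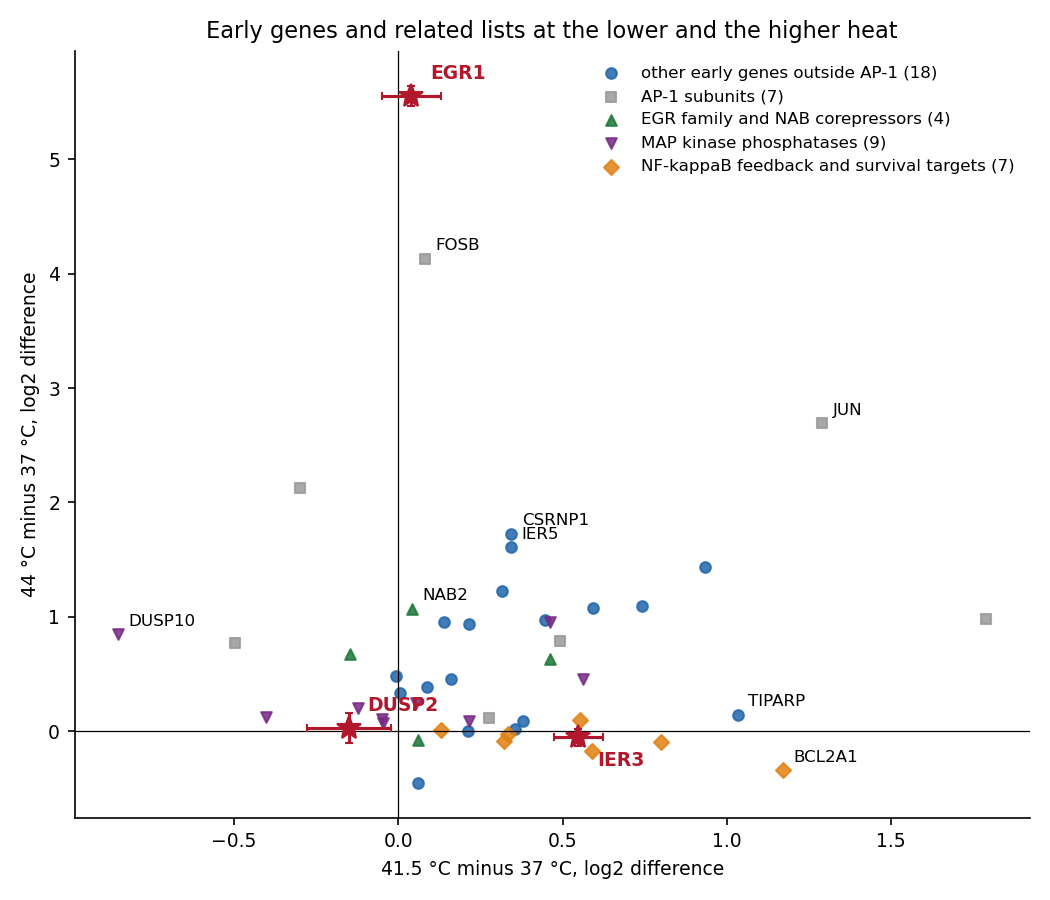
Model log2 difference from 37 °C at 41.5 °C (horizontal axis) and at 44 °C (vertical axis) for the genes of 5 lists (number of measured genes in the key) and for EGR1, IER3 and DUSP2 (stars, with bars of 1 SE). EGR1 lies at 0.04 and 5.55, IER3 at 0.55 and -0.05, and DUSP2 near the origin, at -0.15 and 0.03.

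Radiation was not used to choose the genes and was therefore tested, with 3 arrays against 3. The question was whether 3 Gy moved any of the 3 genes, with or without heat. For EGR1, X-rays minus none was 0.02 ± 0.07 on the log2 scale (SE, 95% interval -0.14 to 0.18, limma adjusted p = 0.997), and it was higher in 1 of 3 pairs of arrays. For IER3 it was 0.01 ± 0.06 (SE, 95% interval -0.12 to 0.15, limma adjusted p = 0.997), higher in 2 of 3 pairs. For DUSP2 it was -0.19 ± 0.10 (SE, 95% interval -0.42 to 0.04, unadjusted p = 0.0948, limma adjusted p = 0.997), lower in 3 of 3 pairs. None of the 3 passed, and 0 of the 14884 genes did (0% called), with a lowest adjusted p of 0.0562. At an unadjusted p under 0.05, limma gave 733 genes, or 4.92%. The interval of DUSP2 was the widest of the 3 and lay mostly below 0.

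By temperature, DUSP2 differed most with X-rays at 44 °C. With X-rays minus without, it read -0.11 at 37 °C, -0.03 at 41.5 °C and -0.43 at 44 °C. A difference as large at 44 °C was found in 5.42% of all genes, between 1 array and 1 array. Without either 44 °C array, the radiation difference of DUSP2 was -0.07 in place of -0.19. For EGR1 the 3 differences were 0.10, -0.01 and -0.03, and for IER3 -0.02, 0.05 and 0.00. These lay within the median residual SD of all genes. The second EGR1 feature differed by -0.45 at 44 °C, and the dim IER3 profile by -0.43 at 37 °C, so 2 of the 7 profiles showed a single pair apart that the brighter features of the same genes did not show.

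**Figure D3:**
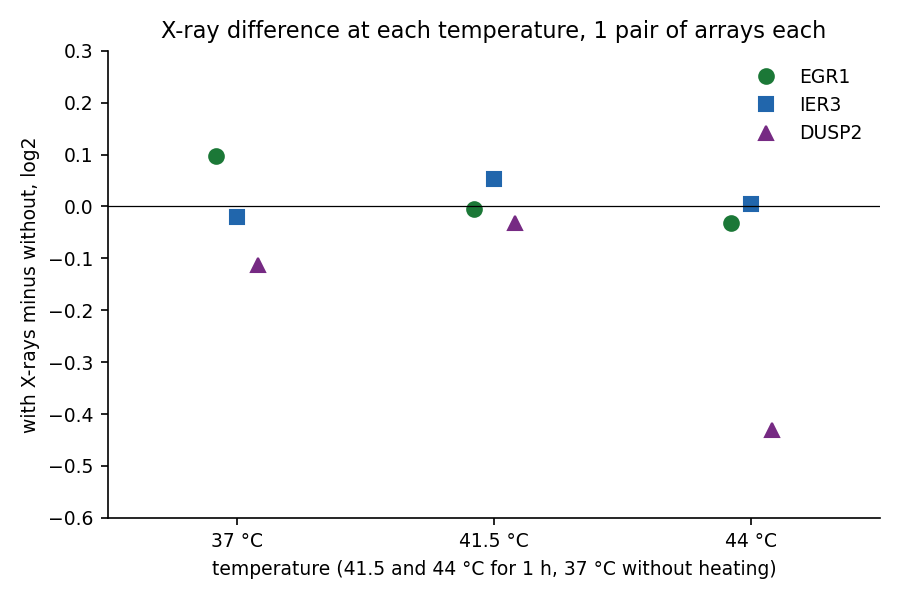
Log2 level with X-rays minus without (vertical axis) for EGR1, IER3 and DUSP2 at 37, 41.5 and 44 °C (horizontal axis), 1 pair of arrays for each point. All points lie between -0.11 and 0.10 except DUSP2 at 44 °C, at -0.43.

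Whether heat and X-rays together gave more or less than the sum of both was described as the combined level minus heat alone, minus X-rays alone, plus the control. For EGR1 this departure from additivity was -0.10 at 41.5 °C and -0.13 at 44 °C. For IER3 it was 0.07 and 0.03, and for DUSP2 0.08 and -0.32. Over all genes the median absolute departure was 0.181 at 41.5 °C and 0.182 at 44 °C, so 5 of the 6 values lay below it for the features used here. The second EGR1 feature gave -0.13 and -0.55, and the IER3 profile of 5 features 0.41 and 0.32, so the size depended on the feature. The exception, DUSP2 at 44 °C, was matched or exceeded by 26.4% of all genes. With 1 array per group these departures have no test.

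Among the relatives of EGR1, the corepressor gene NAB2 also rose at 44 °C, by a smaller amount. NAB2 stood at 5.50 in the control, 5.69 after X-rays, 5.63 after 41.5 °C and 5.65 after 41.5 °C with X-rays, and at 6.77 and 6.57 on the arrays of 44 °C without and with X-rays. The groups did not overlap, and the difference between 44 °C and 37 °C was 1.07 ± 0.12 (SE, 2 arrays each, limma adjusted p = 0.000564). NAB2 was called at 44 °C under each alternative setting that was run and without any single array. At 41.5 °C it differed by 0.04 ± 0.12 (adjusted p = 0.922). EGR3, a further zinc finger factor of the family, rose by 0.63 ± 0.14 (SE, 2 arrays each, adjusted p = 0.022) at 44 °C. The difference was 0.61 when the control was left out, 0.66 without the X-rays array and 0.52 without the combined 44 °C array. The call was lost in each case, with 1 array left at that temperature. EGR4 differed by 0.68 ± 0.18 at 44 °C (adjusted p = 0.0586), and NAB1, a constitutive corepressor, by -0.08 ± 0.10 (adjusted p = 0.747). Thus 2 of the 4 measured relatives were called higher at 44 °C, where 3.57% of all genes were. At 41.5 °C 0 were called in limma (1 at an unadjusted p under 0.05). The medians at 44 and 41.5 °C were 0.66 and 0.05, where those of all genes were -0.04 and -0.0039. The count at 44 °C was 3 without the 41.5 °C array or the combined 41.5 °C array.

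SRF and the genes of its myocardin-related cofactors were measured as well. SRF rose by 0.42 ± 0.10 at 44 °C (SE, 2 arrays each, limma adjusted p = 0.0271) and by 0.55 ± 0.10 at 41.5 °C (adjusted p = 0.0136). Its level was lowest after X-rays, at 7.23, and 7.50 in the control, against 7.78 to 7.95 on the heated arrays. MRTFA, an actin-sensing cofactor of SRF, fell by 0.42 at 44 °C (adjusted p = 0.0179), and its paralogue MRTFB fell by 0.56 at 41.5 °C (adjusted p = 0.00628). None of these 4 calls held without the control or without the X-rays array. Without the X-rays array SRF had an adjusted p of 0.306 at 44 °C and 0.283 at 41.5 °C, MRTFA 0.17 and MRTFB 0.218, and without the control these were 0.0832, 0.0846, 0.224 and 0.108. SRF at 44 °C was also lost without the combined 44 °C array (0.164) and with median centring (0.0542), SRF at 41.5 °C without the combined 41.5 °C array (0.0673) and MRTFA without the 44 °C array (0.117).

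**Figure D4:**
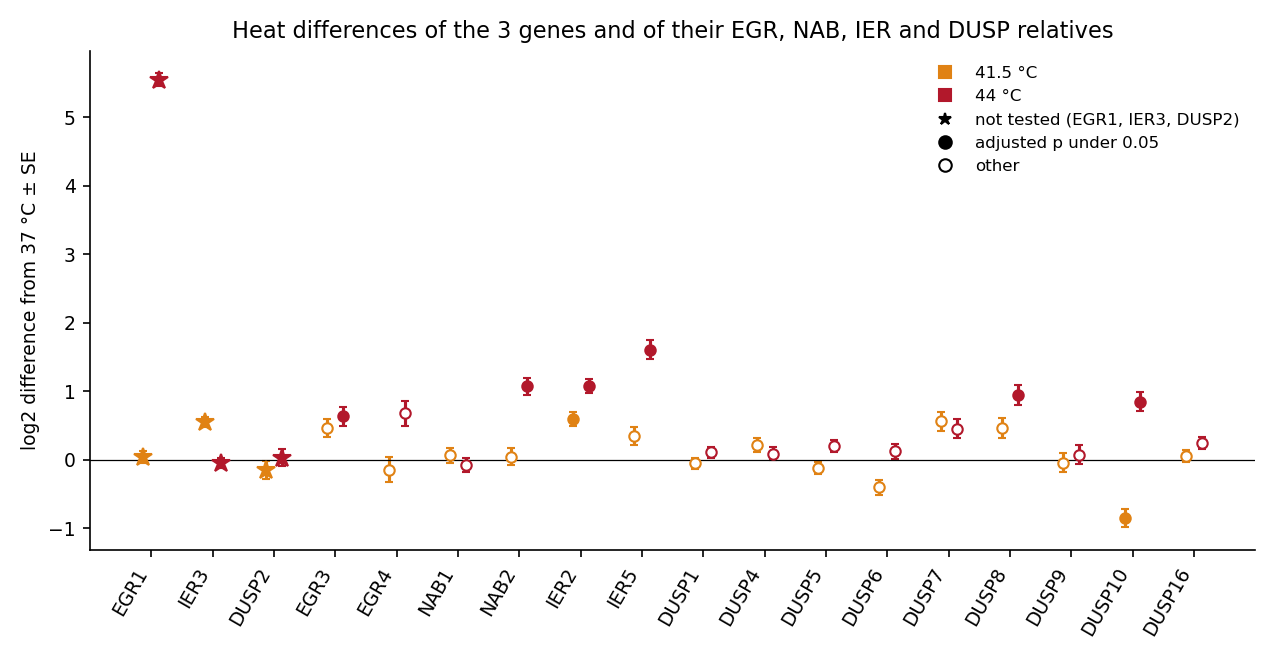
Model log2 difference from 37 °C (vertical axis, bars of 1 SE, 2 arrays at each temperature) at 41.5 °C (orange) and 44 °C (red) for EGR1, IER3 and DUSP2 (stars, not tested) and for measured EGR, NAB, IER and MAP kinase phosphatase genes (circles, filled where the adjusted p was under 0.05). At 44 °C IER5 stands at 1.61, IER2 at 1.08 and NAB2 at 1.07, and DUSP10 lies at -0.85 at 41.5 °C and 0.85 at 44 °C.

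The other IER genes, which share only the name immediate early response with IER3, responded most to the higher heat. IER5, a heat-inducible regulator of heat shock factor HSF1, stood at 6.56 in the control, 7.16 after X-rays, 6.86 after 41.5 °C, 7.55 after 41.5 °C with X-rays, 8.43 after 44 °C and 8.52 after 44 °C with X-rays. Its rise at 44 °C was 1.61 ± 0.13 (SE, 2 arrays each, limma adjusted p = 5e-05), and at 41.5 °C it differed by 0.34 ± 0.13 (adjusted p = 0.212). IER2 rose by 1.08 ± 0.10 at 44 °C (SE, 2 arrays each, adjusted p = 0.000158) and by 0.59 ± 0.10 at 41.5 °C (adjusted p = 0.0156). Where IER3 was highest at 41.5 °C, the level of IER5 at 44 °C exceeded that at 41.5 °C by 1.27 (adjusted p = 0.000255) and that of IER2 by 0.48 (adjusted p = 0.0144). The IER2 call at 41.5 °C was lost without the control (0.0985), the X-rays array (0.284) or the combined 41.5 °C array (0.0967), and its call at 44 °C against 41.5 °C without the 41.5 °C array (0.0856) or the combined 44 °C array (0.0929), and likewise without an intensity trend (0.072).

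DUSP2 belongs to 10 MAP kinase phosphatase genes, of which the other 9 were measured as well. At 44 °C against 37 °C, 2 of those 9 were called higher and 0 lower, where 3.57% of all genes were called higher. The median was 0.20, and 9 of the 9 differences were above 0. DUSP8, which acts on JNK and p38, rose by 0.95 ± 0.15 (SE, 2 arrays each, limma adjusted p = 0.00349) and DUSP10, which acts on the same kinases, by 0.85 ± 0.14 (adjusted p = 0.00471). At 41.5 °C DUSP10 fell by 0.85 ± 0.14 (SE, 2 arrays each, adjusted p = 0.00982), the 1 call among the 9. DUSP10 stood at 5.89 in the control and 5.74 after X-rays, at 4.78 and 5.14 on the arrays of 41.5 °C and at 6.61 and 6.72 on those of 44 °C, so the 3 temperatures did not overlap. DUSP1, the early phosphatase gene best known from stress and serum, lay between 9.78 and 10.02 on all arrays and differed by 0.11 ± 0.08 at 44 °C (adjusted p = 0.524). The ERK phosphatase gene DUSP6 differed by 0.12 ± 0.11 at 44 °C (adjusted p = 0.61), and DUSP4, DUSP5, DUSP7, DUSP9 and DUSP16 by 0.07 to 0.45, none called. At 44 °C against 41.5 °C, 3 of the 9 were called higher and 0 lower, where 4.9% of all genes were called higher. They were DUSP10 at 1.70, DUSP6 at 0.52 (limma adjusted p = 0.0122) and DUSP5 at 0.33 (adjusted p = 0.0367). DUSP6 was then lost without the 41.5 °C array (0.098) and without the intensity trend (0.0624), and DUSP5 under 7 alternatives, with adjusted p from 0.0761 with median centring to 0.336 with averaged features. The DUSP8 call was lost without the control (0.0733) or the X-rays array (0.1), that of DUSP10 at 44 °C without the X-rays array (0.131), and that at 41.5 °C without the control (0.185) or the X-rays array (0.136).

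Genes of other phosphatases and of the kinases upstream were counted beside the 6.11% of all genes called at 44 °C and the 3.29% called at 41.5 °C. Of 12 atypical dual specificity phosphatase genes, 0 were called at either heat in limma (0 at 44 °C and 1 at 41.5 °C at an unadjusted p under 0.05), with differences between -0.23 and 0.23 at 44 °C. At an adjusted p under 0.05, 1 of 10 MAP kinase cascade genes was called at each heat. It was MAP2K3, a kinase that activates p38, which rose by 0.95 ± 0.10 at 44 °C (SE, 2 arrays each, limma adjusted p = 0.000323) and by 0.99 ± 0.10 at 41.5 °C (adjusted p = 0.00118), the latter lost without the X-rays array (0.104). Of 3 Sprouty genes, which encode feedback inhibitors of ERK signalling, SPRY4 rose by 0.70 ± 0.12 at 44 °C (adjusted p = 0.00593). That call was lost without the control (0.125), the X-rays array (0.111) or the combined 44 °C array (0.0513), and the count was 2 without either 41.5 °C array.

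Of 18 other measured early genes outside AP-1, 9 were called higher and 0 lower at 44 °C, where 3.57% of all genes were called higher. The median difference was 0.71, and 17 of the 18 lay above 0. The largest difference was that of CSRNP1, a nuclear protein gene induced by AXIN1, which rose by 1.73 ± 0.11 (SE, 2 arrays each, limma adjusted p = 6.26e-06), and the next were IER5 and GEM, a small GTPase gene, at 1.43 ± 0.12 (adjusted p = 6.79e-05). EGR1's difference of 5.55 was thus larger than any of these. SIK1, a kinase gene, differed by 0.00 ± 0.11 (adjusted p = 0.993), beside the 0.03 of DUSP2, and PLK2, a p53-responsive kinase gene, by -0.45 ± 0.12 (adjusted p = 0.0504). At 41.5 °C 5 of the 18 were called higher and 0 lower, with a median of 0.33, where 2.18% of all genes were called higher. TIPARP, a mono-ADP-ribosyltransferase gene, had a profile of the IER3 kind: it stood at 8.46 and 8.40 on the arrays of 41.5 °C and between 7.37 and 7.61 on the other 4. TIPARP rose by 1.03 ± 0.09 at 41.5 °C (SE, 2 arrays each, adjusted p = 0.00026) and was called there without any single array, while at 44 °C it differed by 0.15 ± 0.09 (adjusted p = 0.39). The count of 5 at 41.5 °C was 1 with the X-rays array left out, 2 with the control left out and 3 with the combined 41.5 °C array left out.

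Among the lists, the gene next to EGR1 in size at 44 °C was an AP-1 gene, FOSB. Of the 7 measured AP-1 subunit genes, 6 rose at 44 °C, with a median of 0.98, where 3.57% of all genes were called higher. At 41.5 °C 3 rose and 1 fell, where 2.18% of all genes were called higher and 1.1% lower. FOSB, a partner of JUN proteins, stood between 5.32 and 5.60 on the 4 arrays without 44 °C and at 9.65 and 9.52 on the 2 with it. Its difference at 44 °C was 4.13 ± 0.11 (SE, 2 arrays each, limma adjusted p = 2.41e-08), and at 41.5 °C 0.08 ± 0.11 (adjusted p = 0.799). JUN rose at both heats, by 2.69 ± 0.09 and 1.29 ± 0.09, and was thus unlike EGR1 at 41.5 °C. The counts at 41.5 °C were 2 higher and 0 lower when the control, the X-rays array or the combined 41.5 °C array was left out.

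Of 11 measured genes known as targets of EGR1, 3 rose and 0 fell at 44 °C, with a median of 0.04, where 3.57% of all genes were called higher. They were NAB2, VEGFA, an angiogenic growth factor gene, at 0.61 ± 0.11 (SE, 2 arrays each, limma adjusted p = 0.00917), and THBS1, which encodes a matrix glycoprotein, at 0.47 ± 0.08 (adjusted p = 0.00826). At 41.5 °C, where EGR1 differed by 0.04, where 2.18% of all genes were called higher, 4 of the 11 rose and 0 fell, with a median of 0.14: THBS1 by 1.03 ± 0.08 (adjusted p = 0.000248), ICAM1 by 0.67, HMOX1 by 0.62 and CCND1 by 0.61. Without the X-rays array the counts were 1 at 44 °C and 1 at 41.5 °C. With the control left out, or the combined 41.5 °C array, they were 3 and 2. VEGFA and THBS1 then had adjusted p of 0.183 and 0.175 at 44 °C without the X-rays array, and VEGFA 0.0649 without the combined 44 °C array. At 41.5 °C without the X-rays array those of ICAM1, HMOX1 and CCND1 were 0.219, 0.256 and 0.212, with the control left out those of ICAM1 and CCND1 were 0.24 and 0.0644, and ICAM1 and HMOX1 had 0.127 and 0.0604 without the combined 41.5 °C array. ICAM1 also had 0.0573 without the 41.5 °C array. At 44 °C against 41.5 °C, where 4.9% of all genes were called higher and 7.23% lower, 2 of the 11 were called higher and 5 lower, with a median of -0.28. NAB2 and VEGFA lay higher at 44 °C, by 1.03 and 0.50, and HMOX1 (-0.77), ICAM1 (-0.63), THBS1 (-0.57), CCND1 (-0.52) and PDGFA (-0.37) lay lower. With 1 array left out in turn, 1 to 2 were called higher and 3 to 6 lower: VEGFA, ICAM1 and PDGFA each lost the call at least once.

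NF-kappaB target and subunit genes, of a factor that also regulates IER3, also had their highest model values at 41.5 °C. So did genes of other lists, such as TIPARP, THBS1, HMOX1 and CCND1. Whether NF-kappaB bears on the level of IER3 was not tested. At 41.5 °C 3 of 7 measured NF-kappaB feedback and survival genes were called higher and 0 lower, where 2.18% of all genes were called higher. Of the differences, 7 of 7 were above 0, as were 17 of 18 for the other early genes and 10 of 11 for the EGR1 targets. The median was 0.55, where IER3 differed by 0.55. At 44 °C 0 of 7 were called in limma (1 at an unadjusted p under 0.05), with a median of -0.09. BCL2A1, an anti-apoptotic gene, stood at 7.28 and 7.53 on the arrays of 41.5 °C and between 5.83 and 6.36 on the other 4, a rise of 1.17 ± 0.12 at 41.5 °C (SE, 2 arrays each, limma adjusted p = 0.0011). NFKB2 and NFKB1, which encode precursors of NF-kappaB subunits, rose by 0.80 ± 0.10 (adjusted p = 0.00403) and 0.59 ± 0.09 (adjusted p = 0.00956). Between 44 °C and 41.5 °C 4 of the 7 were called lower and 0 higher, where 7.23% of all genes were called lower. They ran from BCL3 at -0.41 (adjusted p = 0.0301) to BCL2A1 at -1.51 (adjusted p = 4.05e-05), and 3 were called lower without an intensity trend. The calls of BCL2A1, NFKB2 and NFKB1 at 41.5 °C were lost without the control and without the X-rays array. Their differences were then 1.07 and 1.27 for BCL2A1, 0.85 and 0.75 for NFKB2, and 0.52 and 0.66 for NFKB1. Without the combined 41.5 °C array NFKB1 differed by 0.58 and was not called.

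The p53 targets had the highest median radiation difference of the lists. For X-rays minus none, 7 of 7 measured p53 target genes lay above 0, with a median of 0.63 against 0.01 for IER3. In limma 0 of 7 were called (7 at an unadjusted p under 0.05). CDKN1A, MDM2 and FAS, also fixed as p53 targets, were not among the measured genes. Without the 44 °C array, and likewise without the combined 44 °C array, some of the 7 were called higher. The share of all genes called in those fits is not given here, so no comparison with all genes is drawn. At 44 °C 1 of the 7 was called higher and 0 lower, where 3.57% of all genes were called higher. The median was -0.04, and the lowest difference was -0.96, that of SESN1 (not called). SESN1 stood at 5.73 in the control and 7.08 after X-rays. After the milder heat it stood at 5.64 without and 7.14 with X-rays, and on both arrays of 44 °C at 5.45. For each of the measured p53 targets, levels with and without X-rays lay closer together at 44 °C than at either lower temperature. The model has 1 radiation term for all temperatures, so its values average over this pattern, which was not tested. The gene called higher at 44 °C was SESN2, a stress-inducible sestrin gene, at 0.84 ± 0.21 (SE, 2 arrays each, limma adjusted p = 0.0453). That call was lost without the control (0.334), the X-rays array (0.321) or the 44 °C array (0.302) and after quantile normalization (0.0619), and with 1 array left out in turn the difference ranged from 0.403 to 1.27.

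The genes with profiles most like EGR1 were other genes that stood apart at 44 °C. Likeness was measured as Pearson r over the 6 arrays among the 13 genes with a range at least 0.5 times that of EGR1 and a mean above the median of all genes. The nearest were PNLDC1 (r = 0.9997), FOSB (0.9993), HSPA6 (0.998), LOC100507412 (0.996) and CHORDC1 (0.994). PNLDC1, a ribonuclease gene, stood between 3.97 and 4.19 on 4 arrays and at 8.85 and 8.87 on those of 44 °C. Opposite in shape were the microRNA genes MIR27B (-0.989), MIR21 (-0.982) and MIR1206 (-0.937). These correlations rest on the distance between 2 arrays and the other 4. The range asked of a candidate was set by EGR1's own 44 °C values, so a shape like EGR1's or its mirror follows in large part from the choice of candidates and is a description only.

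For IER3, 4801 genes entered by the same rule, and the nearest were MED8 (r = 0.999), CCL2 (0.998), SIRT7 (0.997), MAK16 (0.996) and IFT46 (0.994). CCL2, which encodes a chemokine for monocytes, stood at 10.37 and 10.45 on the arrays of 41.5 °C and between 7.95 and 8.26 on the other 4. Its range was wider than that of IER3, whose highest and lowest arrays were 0.63 apart. The most opposite were MMD (-0.997), CENPH (-0.993) and TTC33 (-0.992). MMD, a membrane protein gene, stood at 9.02 and 8.96 on the arrays of 41.5 °C and between 9.90 and 10.09 on the others. DUSP2 had a range of 0.43, under the 0.5 set for this search, so no gene was named for it.

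The arrays were alike in scale, with medians from 4.39 to 4.46, and other scalings moved them by less than 0.05. The epithelial keratin gene KRT18 lay between 11.43 and 11.59 on all arrays, the brightest of 7 measured epithelial genes of 8 fixed. KRT8 and EPCAM lay between 5.92 and 6.83, and KRT19 and NKX2-1 between 4.33 and 4.84. The alveolar surfactant genes SFTPB and SFTPC lay between 3.99 and 5.44. Of the markers fixed for other cell types, 2 of 5 leukocyte genes were measured (levels 2.78 to 5.81), 2 of 5 fibroblast genes (1.72 to 3.15) and 3 of 5 endothelial genes (2.92 to 4.43). At either heat against 37 °C 0 of these 14 marker genes were called in limma (2 at an unadjusted p under 0.05 at each heat), and at 44 °C against 41.5 °C CD14 and EPCAM were called higher, at 0.77 ± 0.13 (adjusted p = 0.00362) and 0.45 ± 0.11 (adjusted p = 0.0249). With 1 array left out in turn, EPCAM was not called in 5 of the 6 cases (adjusted p from 0.0513 to 0.187). Their part in the results was not tested.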

How the data were processed

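RNA of A549 cells was read on 6 Affymetrix arrays, 1 per group, from 300 ng of total RNA per sample. Per the submitters' processing notes, the authors used Affymetrix Expression Console 1.1 and RMA, and they deposited log2 values. A genome build was not given in the sources used here. Of 53617 features, 16098 have 1 gene symbol, 0 several and 37519 none. All 16098 were matched to RefSeq gene IDs, with 0 symbols changed. For 779 genes with several features the one with the highest mean was used, leaving 14884 genes.

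An additive model (temperature as a factor, plus radiation) was fitted in limma 3.58.1 (R 4.3.3) over all arrays, with an intensity trend. It was afterwards run on simulated arrays, drawn with the gene means and residual SDs of these data and without an interaction. The outcome of that run is not given here. The model has 2 residual degrees of freedom, which also hold any interaction of heat and radiation, and 8.06 prior ones. The median SE of a radiation difference was 0.113 and that of a temperature difference 0.138, a precision limited by the number of arrays. P-values are two-sided, adjusted by Benjamini-Hochberg over all 14884 genes and read at 0.05. With 1 array per group, the model borrows arrays across groups, and differences between single arrays have no replicate check. Leaving out an array leaves 1 array at its temperature and fewer residual degrees of freedom. A call can therefore be lost while the difference itself moves little.

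The genes and lists were chosen with earlier results of these data known, so no heat difference of EGR1, IER3 or DUSP2 was tested. Named are these 3, all measured EGR, NAB, SRF-related and MAP kinase phosphatase genes, IER2 and IER5, and, of each other list, the 2 highest and 2 lowest at 44 °C. For each of the 3 genes with a range of at least 0.5, the 5 most alike and 3 most opposite genes by Pearson r are also named. NFKB2, TIPARP, GEM, THBS1, CCND1, HMOX1, ICAM1, BCL3, KRT18, KRT19, SFTPB and, in the closing section, MYC, KLF10 and PLK3 were chosen after their values were seen. Genes fixed in a list but not among the named genes on the array could not be read. These included EGR2, ELK1, ELK3, ELK4, NFKBIA, TNFAIP3, BIRC3, CDKN1A, MDM2 and FAS. Promoters came from RefSeq on GRCh38.p14, where 2 of the 3 genes and 82 of 110 list genes were matched. Alternatives were another normalization or centring, the mean of features, no trend, a filter on dim genes, leaving out each array and, chosen after seeing the data, a fit of every feature.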

Additional observations from a re-analysis of the deposited data

Results flagged for a closer look

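DUSP10, a relative of DUSP2, was called lower at 41.5 °C and higher at 44 °C, so its response differed between the heats. The difference of 44 °C against 41.5 °C was itself tested in limma and was 1.70 on the log2 scale (SE 0.14, adjusted p = 4.72e-05). JUND, an AP-1 subunit gene, was likewise called lower at 41.5 °C (-0.50, adjusted p = 0.0232) and higher at 44 °C (0.77, adjusted p = 0.00102), with a tested difference of 1.26 (SE 0.10, adjusted p = 3.4e-05). The call of JUND at 41.5 °C was lost when the control (adjusted p = 0.102), the X-rays array (0.358) or the combined 41.5 °C array (0.161) was left out, and that at 44 °C when the control was (0.0555). Those of DUSP10 were lost without the X-rays array (0.131 at 44 °C and 0.136 at 41.5 °C) and, at 41.5 °C, without the control (0.185).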

How the results depend on the processing

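No paired analysis was possible because each group has 1 array, so no groups share 2 replicate numbers (a number here only names an array). When the features of a gene were averaged, EGR1 differed by 4.70 at 44 °C against 37 °C and 4.62 against 41.5 °C, and IER3 by 0.41 at 41.5 °C against 37 °C and -0.43 at 44 °C against 41.5 °C. The radiation differences of EGR1 and IER3, near 0 and not called, were then -0.0528 and -0.0795, with -0.13 for the second EGR1 feature and -0.0052 and -0.19 for the IER3 profiles of 1 dimmer feature and of 5 features. List genes called lower at 44 °C numbered 1, against 0 without an intensity trend, 2 after quantile normalization, 3 after centring, 2 with averaged features and 3 above the median level. Without the trend, those called at 41.5 °C were 5 higher and 0 lower (from 22 and 3), and at 44 °C against 41.5 °C 18 and 8 (from 29 and 13). The cause was not tested. With each array left out in turn, radiation gave -0.0182 to 0.046 for EGR1, -0.0081 to 0.0291 for IER3 and -0.27 to -0.07 for DUSP2. DUSP2 then ranged from -0.15 to 0.21 at 44 °C, from -0.27 to -0.0304 at 41.5 °C and from -0.0007 to 0.36 between the heats. List genes called ranged at 44 °C from 21 to 36 higher and 0 to 5 lower, at 41.5 °C from 8 to 26 and 0 to 5, at 44 °C against 41.5 °C from 20 to 29 and 8 to 16, and for radiation from 0 to 8 and 0 to 1. Of 104 calls of named genes, 52 held under all settings, 52 were lost under at least 1 and 0 reversed. Without detection calls, signal over background limits what the dim profiles can show.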

Other observations

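On the X-rays array some other early genes stood away from the control. Each difference below is between 1 array and 1 array. MYC stood at 7.05 on the X-rays array against 7.72 in the control, and KLF10, a zinc finger factor gene, at 8.02 against 8.54. PLK3, a stress kinase gene, stood at 6.35 against 5.70 and PLK2 at 9.11 against 8.58. With X-rays against without at 41.5 °C, MYC stood at 7.50 against 8.02 and KLF10 at 8.96 against 9.09. PLK3 stood there at 6.81 against 5.94 and PLK2 at 9.25 against 8.55. At 44 °C MYC stood at 7.41 against 7.53 and KLF10 at 9.41 against 9.35. PLK3 stood there at 6.13 against 5.95 and PLK2 at 8.46 against 8.32. In the model of all arrays these 4 genes differed with radiation by -0.44, -0.20, 0.57 and 0.46, and none was called in limma (adjusted p = 0.609, 0.997, 0.609 and 0.609). Without the 44 °C array, and likewise without the combined 44 °C array, some of the other early genes were called with radiation, in both directions. The share of all genes called in those fits is not given here, so no comparison with all genes is drawn. The 4 genes named were picked out after their values were seen.

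The genes of the AU-rich element decay factors measured, KHSRP and PARN, which act on short-lived messages, differed by -0.03 and -0.16 at 44 °C and by 0.00 and -0.05 at 41.5 °C. Neither was called in limma (0 at an unadjusted p under 0.05).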
